A study of Mus musculus with 24 samples.

Results

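The genes described here are 47 genes of DNA replication and of entry into S phase, taken by symbol from a written list that covers helicase loading and activation, polymerases, nucleotide supply, G1/S cyclins and the chromatin steps behind the fork. All 47 were among the 26253 genes of the deposited count table and all 47 passed the filter on low counts, which left 16153 genes. They were measured by RNA sequencing of mouse lung in 24 libraries, 6 in each of 4 groups: mice fed a diet rich in docosahexaenoic acid (DHA, an omega-3 fatty acid) and exposed to ozone, mice on a control diet exposed to ozone, DHA-fed mice in filtered air, and control-fed mice in filtered air. In each group the diet came before the exposure. The sources used here do not give genotype, strain, age, sex, ozone dose, length of exposure, time of collection or the makeup of the control diet. They also leave unsaid if each of the 6 libraries of a group is a mouse of its own, and p-values therefore refer to the spread among libraries, which may be technical.

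Replication starts in G1, when the origin recognition complex, Cdc6 and Cdt1 load the MCM helicase onto DNA. At the G1/S border cyclin E with its kinase and the kinase Cdc7-Dbf4 fire the loaded origins, Cdc45 and the GINS complex turn the helicase on, and polymerases, the sliding clamp and its loader copy both strands. Most of these genes are transcribed under E2F factors once a cell commits to divide, and in the resting adult lung few cells do so, while ozone is known as an irritant gas that injures airway and alveolar epithelium.

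The promoters show one thing that many of the genes have in common, and RefSeq windows on build GRCm38.p6 held 38 of the 47. An exact 8-base E2F-type match (TTTCCCGC, TTTCGCGC, TTTGCCGC or TTTGGCGC, on either strand) lay between 250 bases before and 50 bases after a transcription start in 14 of these 38 genes, or 36.8%. Among the 12718 tested genes with a window the share was 4.18%, and among all 27025 genes of the RefSeq promoter table it was 2.6%. The 14 genes were Orc1, Cdc6, Cdt1, Mcm3, Mcm5, Mcm6, Mcm7, Gins3, Pola1, Pold1, Pole2, Rfc3, Lig1 and Uhrf1. The pentamer CCAAT, counted the same way on both strands, was in 55.3% of the 38 and in 41.7% of the tested genes with a window. The 250 bases before the start are printed, 5′ to 3′ on the gene's strand, for the 3 genes with a match whose change after ozone was largest (mean of both diets), a gene with an intermediate change, a gene with little change and a gene with a large change and no match. Capitals mark the E2F-type matches. In Mcm5 a match on each strand overlaps the other. The second of the annotated Uhrf1 starts is shown.
Cdc6, chr11:98907901-98908150, + strand: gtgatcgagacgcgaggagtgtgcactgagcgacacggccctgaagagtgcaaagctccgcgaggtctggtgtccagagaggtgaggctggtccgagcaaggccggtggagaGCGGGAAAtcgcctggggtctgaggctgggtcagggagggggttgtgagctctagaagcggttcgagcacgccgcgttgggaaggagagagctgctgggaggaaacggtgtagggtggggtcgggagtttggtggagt
Mcm5, chr8:75109259-75109508, + strand: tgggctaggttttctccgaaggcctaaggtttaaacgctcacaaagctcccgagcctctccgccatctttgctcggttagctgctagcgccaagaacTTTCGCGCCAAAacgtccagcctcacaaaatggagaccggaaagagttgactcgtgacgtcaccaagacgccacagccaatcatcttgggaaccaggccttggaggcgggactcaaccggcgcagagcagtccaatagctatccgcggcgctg
Uhrf1, chr17:56304063-56304312, + strand: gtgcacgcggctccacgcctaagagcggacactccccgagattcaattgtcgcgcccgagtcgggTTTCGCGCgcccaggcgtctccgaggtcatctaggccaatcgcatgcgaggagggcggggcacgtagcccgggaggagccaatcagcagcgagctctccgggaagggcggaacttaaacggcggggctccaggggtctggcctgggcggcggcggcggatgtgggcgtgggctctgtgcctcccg
Pola1, chrX:93632156-93632405, - strand: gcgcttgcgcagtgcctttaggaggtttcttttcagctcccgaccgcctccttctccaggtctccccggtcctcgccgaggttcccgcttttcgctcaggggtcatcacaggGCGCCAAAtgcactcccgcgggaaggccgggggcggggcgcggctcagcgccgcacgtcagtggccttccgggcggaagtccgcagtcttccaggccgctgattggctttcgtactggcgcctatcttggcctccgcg
Gins3, chr8:95633309-95633558, + strand: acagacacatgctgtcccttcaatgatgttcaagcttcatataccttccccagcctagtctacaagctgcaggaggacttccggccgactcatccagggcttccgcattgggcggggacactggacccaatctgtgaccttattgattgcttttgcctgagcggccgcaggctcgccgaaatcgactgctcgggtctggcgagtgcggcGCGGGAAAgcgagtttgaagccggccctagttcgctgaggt
Rrm2, chr12:24708004-24708253, + strand: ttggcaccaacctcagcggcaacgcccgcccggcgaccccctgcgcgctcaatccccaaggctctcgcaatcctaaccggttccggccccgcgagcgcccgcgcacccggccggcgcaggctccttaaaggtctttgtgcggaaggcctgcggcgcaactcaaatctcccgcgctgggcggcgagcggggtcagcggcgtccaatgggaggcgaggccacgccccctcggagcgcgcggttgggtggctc
The Rrm2 window holds no match to these letters, as do the windows of 23 other members. A match describes the letters of the window, and a tie between a match and the change after ozone was not tested. Genes called higher after ozone on both diets held one in 10 of 29 cases (34.5%), and the other members in 4 of 9 (44.4%). Median log2 fold changes after ozone were 0.54 on the DHA diet and 0.65 on the control diet for the 14 genes with a match, and 0.66 and 0.50 for the 24 without.

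Library totals ran from 18053493 to 26225630 counts. The lung label was matched by the tissue's own markers: all 10 lung epithelium markers (among them surfactant genes Sftpc, Sftpb and Sftpa1) were tested, and their summed level lay between 92327 and 167961 CPM (counts scaled to a common library size, with TMM). The lowest sum was that of DHA-diet ozone library 1, and the next lowest was 118143 CPM, in control-diet air library 6. Some libraries stood apart. Mean log2 CPM over 72 ribosomal protein genes was 6.10 to 6.16 in control-diet air libraries 1 to 3 and 6.50 to 6.55 in control-diet air libraries 4 to 6, with the other 3 groups between 6.24 and 6.53. DHA-diet ozone libraries 1 and 2 had the highest summed neutrophil markers, 281 and 363 CPM, where the rest of that group lay between 77.6 and 113. Counts that rest on these libraries are given with and without them.

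Most of the replication genes were higher after ozone on both diets. By the quasi-likelihood test of edgeR, Benjamini-Hochberg adjusted over all 16153 genes (called at an adjusted p under 0.05), 38 of 47 members were higher in DHA-diet ozone than in DHA-diet air libraries and 0 were lower, where 12.7% of all genes were called higher and 11% lower. On the control diet 35 members were higher in ozone and 0 were lower, against a background of 8.93% higher (1442 genes) and 7.87% lower (1271 genes). With library totals as the only scaling that background was 940 genes higher and 1737 lower, and 33 members were called higher and 0 lower. All 47 fitted log2 fold changes were above 0 on each diet, compared with 47.7% of all genes on the DHA diet and 48.5% on the control diet. The median member was 1.498-fold higher on the DHA diet (log2 0.58) and 1.43-fold higher on the control diet (log2 0.52), while the median over all genes was -0.01 on both. Every ozone library exceeded every air library of its diet for 24 members on the DHA diet (5.14% of all genes) and for 28 on the control diet (4.5%).

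**Figure D1:**
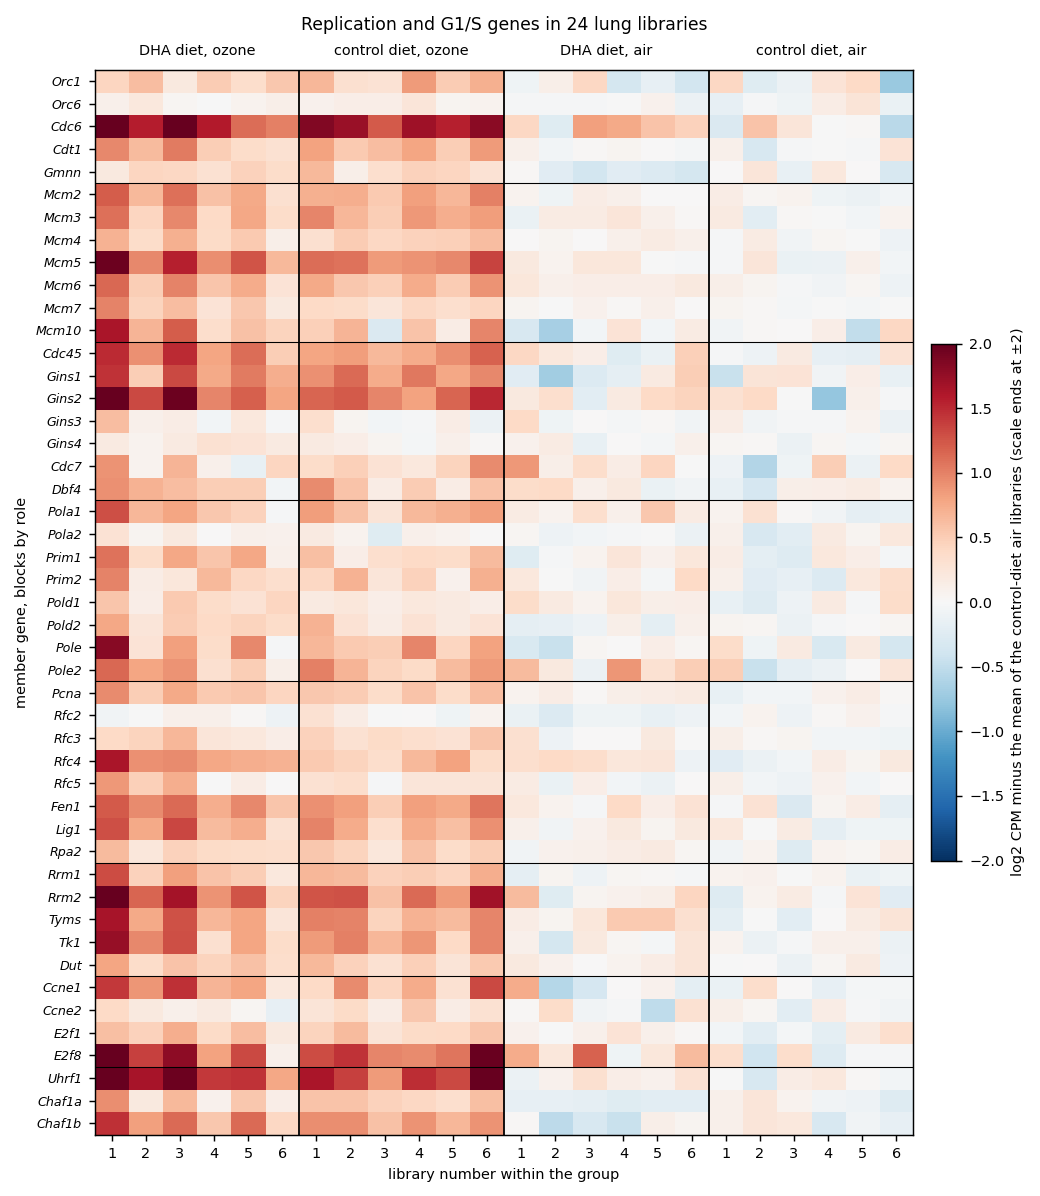
Each row is one of the 47 genes and each column one of 24 libraries, coloured by log2 CPM minus the mean of the control-diet air libraries, with the scale ending at ±2. The 2 ozone groups on the left are mostly red and the 2 air groups on the right pale, and library 1 of DHA-diet ozone is the darkest column.

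The summed level of the 47 genes shows the same separation library by library. It was 709 to 1121 CPM (median 830.4) in DHA-diet ozone libraries, against 589 to 624 (median 614) in DHA-diet air libraries. On the control diet the sum was 735 to 903 CPM (median 833) after ozone, against 566 to 603 (median 594) in air. All 12 ozone libraries lay above all 12 air libraries. The spread was widest in DHA-diet ozone, with an SD of 151 CPM against 13.6 in DHA-diet air, and 65.2 in control-diet ozone against 13.3 in control-diet air. Libraries 1 and 3 (1121 and 993 CPM) of the DHA-diet ozone group were the highest of all 24 and its library 6 (709 CPM) was the lowest after ozone. In bulk lung RNA, more cells in S phase and more of this RNA per cell cannot be told apart.

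Leaving out the libraries that stand apart changed the counts. Without DHA-diet ozone libraries 1 and 2, 33 members were called higher and 0 lower on the DHA diet, with a median log2 fold change of 0.51. Dbf4, Pola1, Prim2, Rfc3, Rfc5 and E2f8 were no longer called and Rfc2 was added. With control-diet air libraries 1 to 3 left out, 26 members were called higher and 0 lower on the control diet (median 0.51), and Dbf4, Prim1, Prim2, Pold2, Pole2, Rfc4, Tyms, Ccne1 and E2f1 were lost. With control-diet air libraries 4 to 6 left out the count was 34 (median 0.54), with Pola1, Pole2, Ccne1 and Chaf1a lost and Orc6, Cdc7 and Pold1 added. In each of these 3 refits no called member changed sign.

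Some transcripts of other cell types moved with the ozone groups too. The 10 alveolar macrophage markers summed to 474 to 644 CPM in DHA-diet ozone against 364 to 429 in DHA-diet air, and to 471 to 589 CPM in control-diet ozone against 333 to 408 in control-diet air, so that the groups of a diet did not overlap. Of these 10 markers 3 were called higher on the DHA diet (Chil3, Marco and Mrc1, with 1 left without DHA-diet ozone libraries 1 and 2) and 2 on the control diet (Chil3 and Mrc1, with 4 without control-diet air libraries 4 to 6), and 0 were called lower on either. Over all genes 12.7% were called higher on the DHA diet and 8.93% on the control diet. Fitted changes were above 0 for 7 of the 10 on each diet. Their medians were log2 0.10 on the DHA diet (lowest -0.29) and 0.21 on the control diet (lowest -0.24). Neutrophil markers were called higher in 7 of 9 cases on the DHA diet, with sums of 77.6 to 363 CPM in ozone against 48.1 to 87.6 in air. That count was 4 without library 2 of DHA-diet ozone, and 2 without DHA-diet ozone libraries 1 and 2. On the control diet 1 of 9 neutrophil markers, Retnlg, was called, with sums of 60.4 to 173 CPM in ozone against 58.4 to 211 in air. The defining neutrophil marker Ly6g had 0 to 6 counts in every library and was not tested. Of the 8 granulocyte precursor markers only 4 were tested (Prtn3, Camp, Ltf and Ngp), and the precursor sums below cover these alone. Mpo and Elane had 0 to 13 and 0 to 3 counts, Ctsg and Ms4a3 had 0 to 3 and 0 to 2, and none of them was tested. Library 1 of DHA-diet ozone, with the second highest neutrophil sum (281 CPM) and the highest granulocyte precursor sum (334 CPM), had the highest sum of the 47 genes (1121 CPM). Library 2, with the highest neutrophil sum (363 CPM), had 49.01 CPM of the granulocyte precursor markers and 807 CPM of the 47 genes. Lung epithelium markers were called higher in 4 of 10 cases on the DHA diet (2 without library 1, 4, 5 or 6 of DHA-diet ozone or library 1, 3 or 5 of DHA-diet air) and in 5 of 10 on the control diet (3 without control-diet air libraries 1 to 3). Fitted changes of these markers were above 0 for 7 of 10 on the DHA diet and 9 of 10 on the control diet. Their sums overlapped between ozone and air on both diets. The median sum was 126227 CPM in DHA-diet ozone against 129110 in DHA-diet air, and 134962 CPM in control-diet ozone against 126241 in control-diet air. Of the lists for granulocyte precursors, T cells, B cells, endothelium, fibroblasts and erythroid precursors, none had more than 1 gene called on either diet with all libraries, and none more than 3 under any alternative. The part of these cell types in the rise of the replication genes was not tested.

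Mitotic genes, which act later in the same cycle, were followed through a separate list of 25. Of these 23 were called higher on the DHA diet and 22 on the control diet, with 0 lower, where 12.7% and 8.93% of all genes were called higher. Their median log2 fold changes of 1.15 and 1.07 were larger than those of the 47 replication genes. Without DHA-diet ozone libraries 1 and 2 the mitotic count on the DHA diet was 20 (median 0.84). On the control diet it was 16 both without control-diet air libraries 1 to 3 (median 1.21) and without libraries 4 to 6 (median 0.96). The mitotic sum was 221 to 578 CPM (median 309) in DHA-diet ozone against 201 to 233 (median 209) in DHA-diet air. It was 269 to 356 CPM (median 315) in control-diet ozone against 182 to 210.4 (median 192) in control-diet air. Library 6 of DHA-diet ozone lay within the range of its air group for mitosis, though not for replication. The ratio of the mitotic to the replication sum was 0.311 to 0.516 in DHA-diet ozone against 0.329 to 0.376 in DHA-diet air, and 0.354 to 0.396 in control-diet ozone against 0.303 to 0.372 in control-diet air, and the groups overlapped on both diets.

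**Figure D2:**
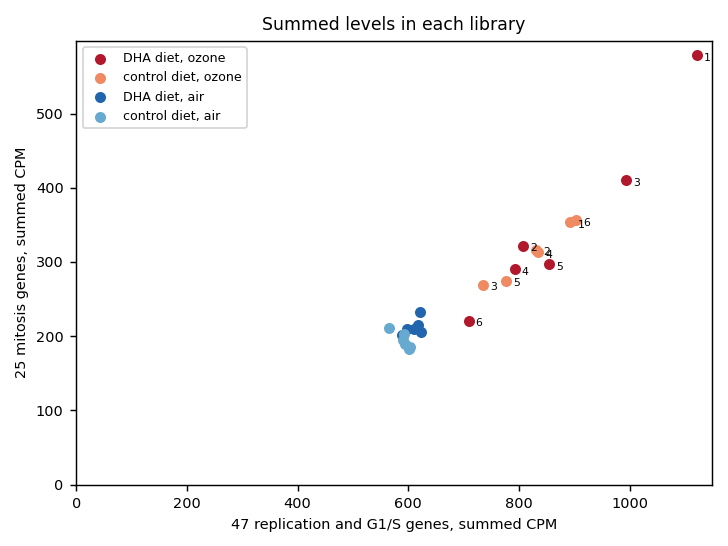
The summed CPM of the 47 replication and G1/S genes (horizontal axis) is plotted against that of 25 mitosis genes (vertical axis) for each of 24 libraries, coloured by group, with the library number beside each ozone point. All ozone points lie to the right of all air points, and library 1 of DHA-diet ozone (1121 and 578 CPM) is farthest out.

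Origin licensing genes, which mark and load the start sites, ran from the largest fitted change of all 47 genes on the control diet, for Cdc6, to one of the smaller ones, for Orc6. Of the 5, 3 were called higher on each diet (Cdc6, Cdt1 and Gmnn). Cdc6, the ATPase that brings the helicase to the origin, had 3.75 to 9.67 CPM (median 5.58) in DHA-diet ozone libraries, against 1.58 to 3.30 CPM (median 2.69) in DHA-diet air libraries. Its levels were 4.37 to 6.75 CPM (median 6.12) in control-diet ozone libraries, against 1.29 to 2.77 CPM (median 1.88) in control-diet air libraries. All 6 ozone libraries exceeded all 6 air libraries on both diets, and Cdc6 rose 2.32-fold on the DHA diet (log2 1.22 ± 0.21, adjusted p = 0.000181) and 3.05-fold on the control diet (log2 1.61 ± 0.22, adjusted p = 3.54e-05). Cdt1, the second loading factor, had 8.68 to 14.5 CPM (median 10.5) in DHA-diet ozone libraries, against 6.80 to 7.55 CPM (median 7.14) in DHA-diet air libraries. It had 9.89 to 12.7 CPM (median 11.47) in control-diet ozone libraries, against 5.64 to 8.52 CPM (median 6.998) in control-diet air libraries. These groups did not overlap on either diet, and Cdt1 rose 1.56-fold on the DHA diet (log2 0.65 ± 0.11, adjusted p = 0.000201) and 1.59-fold on the control diet (log2 0.67 ± 0.11, adjusted p = 0.000269). Gmnn encodes geminin, which holds Cdt1 in check after S phase begins, and rose 1.51-fold on the DHA diet (adjusted p = 3.87e-05) and 1.29-fold on the control diet (adjusted p = 0.00507).

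Orc6, the smallest subunit of the recognition complex, had 18.3 to 21.4 CPM (median 19.6) in DHA-diet ozone libraries, against 16.9 to 19.5 CPM (median 18.2) in DHA-diet air libraries. Control-fed libraries had 19.2 to 21.8 CPM (median 19.9) in control-diet ozone libraries, against 16.4 to 21.97 CPM (median 17.8) in control-diet air libraries. The groups overlapped on both diets and Orc6 was not called, at 1.08-fold on the DHA diet (log2 0.11 ± 0.06, adjusted p = 0.230) and 1.08-fold on the control diet (log2 0.12 ± 0.06, adjusted p = 0.231). It was called on the control diet without control-diet air libraries 4 to 6 (log2 0.20, adjusted p = 0.0332). Orc1, the largest subunit, was 1.40-fold on the DHA diet (adjusted p = 0.0605) and 1.43-fold on the control diet (adjusted p = 0.0564) and missed the threshold on both. Leaving out one library put Orc1 past it on the DHA diet without library 3 of DHA-diet air or 6 of control-diet air (adjusted p = 0.0299 to 0.0393) and on the control diet without library 1 or 5 of control-diet air (adjusted p = 0.0383 to 0.0421).

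The MCM helicase is the ring, built from Mcm2 to Mcm7, that unwinds the DNA, with Mcm10 as a separate factor that helps it start. All 7 genes were called higher on the DHA diet and 6 of 7 on the control diet, and both counts held with every single library left out. Mcm5, which forms one side of the gate through which DNA enters the ring, had 16.1 to 40.3 CPM (median 22.4) in DHA-diet ozone libraries, against 10.2 to 12.1 CPM (median 11.4) in DHA-diet air libraries. Its levels were 18.6 to 26.2 CPM (median 21.02) in control-diet ozone libraries, against 9.37 to 12.2 CPM (median 10.05) in control-diet air libraries. The ozone groups stood clear of the air groups, and Mcm5 rose 2.25-fold on the DHA diet (log2 1.17 ± 0.15, adjusted p = 7.93e-06) and 2.06-fold on the control diet (log2 1.04 ± 0.15, adjusted p = 5.89e-05). Mcm2, its partner at the gate, had 21.9 to 40.8 CPM (median 28.8) in DHA-diet ozone libraries, against 16.7 to 19.6 CPM (median 18.2) in DHA-diet air libraries. Control-fed libraries had 25.5 to 35.3 CPM (median 29.1) in control-diet ozone libraries, against 16.3 to 19.5 CPM (median 17.6) in control-diet air libraries. There was again no overlap, and Mcm2 rose 1.69-fold on the DHA diet (log2 0.76 ± 0.11, adjusted p = 1.89e-05) and 1.68-fold on the control diet (log2 0.75 ± 0.11, adjusted p = 4.89e-05).

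Mcm7 had the smallest change of the ring as a mean of both diets and on the control diet, while on the DHA diet that of Mcm4 was smaller. It had 32.3 to 56.1 CPM (median 39.9) in DHA-diet ozone libraries, against 27.99 to 30.2 CPM (median 28.99) in DHA-diet air libraries. It had 33.4 to 38.03 CPM (median 36.8) in control-diet ozone libraries, against 27.4 to 29.4 CPM (median 28.2) in control-diet air libraries. No ozone library fell within the air range, and Mcm7 rose 1.41-fold on the DHA diet (log2 0.49 ± 0.08, adjusted p = 0.000144) and 1.29-fold on the control diet (log2 0.36 ± 0.08, adjusted p = 0.00401). The host gene of Mir25, Mir93 and Mir106b is Mcm7, so reads of those microRNA precursors share its locus. Ring subunits Mcm3, Mcm4 and Mcm6 rose 1.33 to 1.52-fold on the DHA diet and 1.38 to 1.70-fold on the control diet. Mcm10 rose 1.97-fold on the DHA diet (adjusted p = 0.00239) and was 1.36-fold on the control diet (adjusted p = 0.188), without passing the test there. The difference between the diets in that response did not pass the test (interaction log2 0.53, adjusted p = 0.890).

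**Figure D3:**
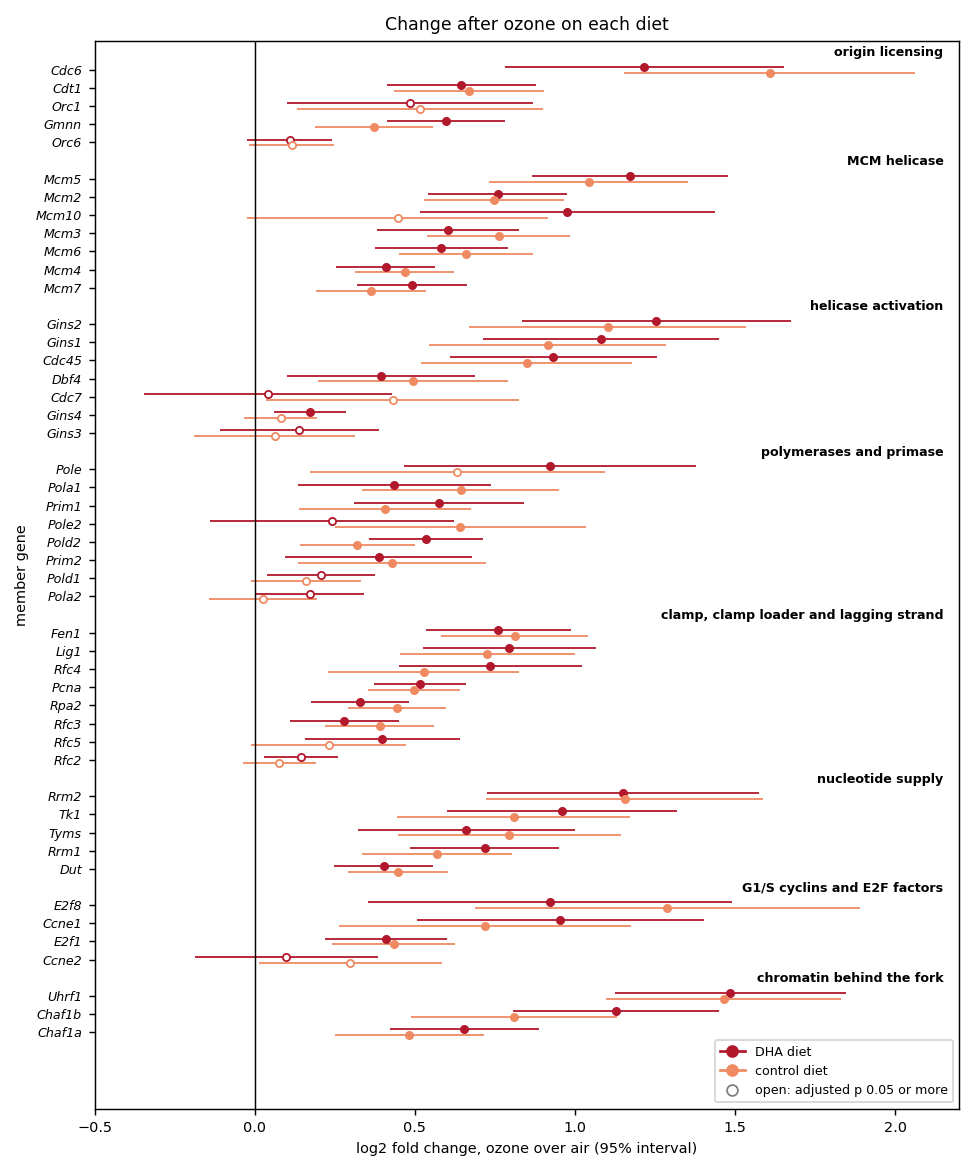
Points give the fitted log2 fold change of ozone over air for each gene, grouped by role, with 95% intervals, in dark red for the DHA diet and orange for the control diet. Filled points passed an adjusted p under 0.05, all points lie right of 0, and the largest values are those of Cdc6, Uhrf1, E2f8, Gins2, Mcm5 and Rrm2.

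Helicase activation joins Cdc45 and the 4 GINS subunits to the loaded ring under the kinase Cdc7 and its activator Dbf4. The GINS subunits form one complex, yet 2 of them carried large changes and 2 small ones. Gins2 had 3.66 to 9.44 CPM (median 5.05) in DHA-diet ozone libraries, against 1.82 to 2.87 CPM (median 2.53) in DHA-diet air libraries. Its levels were 3.69 to 6.000 CPM (median 4.73) in control-diet ozone libraries, against 1.24 to 2.77 CPM (median 2.18) in control-diet air libraries. The groups did not overlap, and Gins2 rose 2.38-fold on the DHA diet (log2 1.25 ± 0.20, adjusted p = 9.26e-05) and 2.146-fold on the control diet (log2 1.10 ± 0.21, adjusted p = 0.000787). Gins1 had 2.84 to 5.51 CPM (median 3.79) in DHA-diet ozone libraries, against 1.24 to 2.83 CPM (median 1.75) in DHA-diet air libraries. Control-fed libraries had 3.38 to 4.42 CPM (median 3.86) in control-diet ozone libraries, against 1.48 to 2.44 CPM (median 2.06) in control-diet air libraries. Every ozone library was higher than every air library of its diet, and Gins1 rose 2.12-fold on the DHA diet (log2 1.08 ± 0.18, adjusted p = 0.000109) and 1.88-fold on the control diet (log2 0.91 ± 0.18, adjusted p = 0.00103). By the deposited coordinates Gins2 overlaps Gse1 by 119 bases, and Gse1 was counted at a mean of 1332 reads against 85.8 for Gins2, so a part of its reads could belong to either gene.

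Gins3 had 3.21 to 5.12 CPM (median 3.66) in DHA-diet ozone libraries, against 3.15 to 4.41 CPM (median 3.32) in DHA-diet air libraries. It had 3.08 to 4.23 CPM (median 3.39) in control-diet ozone libraries, against 3.11 to 3.73 CPM (median 3.30) in control-diet air libraries. The ranges overlapped almost fully, and Gins3 did not pass the test, at 1.101-fold on the DHA diet (log2 0.14 ± 0.12, adjusted p = 0.439) and 1.04-fold on the control diet (log2 0.06 ± 0.12, adjusted p = 0.777). Gins4 was 1.13-fold on the DHA diet (adjusted p = 0.0228) and 1.06-fold on the control diet (adjusted p = 0.340). Its call on the DHA diet ended without library 4 or 5 of DHA-diet ozone or 3 of DHA-diet air (adjusted p = 0.0521 to 0.0804). Cdc45, the third part of the active helicase, rose 1.91-fold on the DHA diet (adjusted p = 0.000132) and 1.80-fold on the control diet (adjusted p = 0.000702). The kinase gene Cdc7 was not called, at 1.03-fold on the DHA diet (adjusted p = 0.902) and 1.35-fold on the control diet (adjusted p = 0.127), but was called on the control diet without control-diet air libraries 4 to 6 (log2 0.70, adjusted p = 0.0371). Its activator Dbf4 rose 1.31-fold on the DHA diet (adjusted p = 0.0446) and 1.41-fold on the control diet (adjusted p = 0.0187). The Dbf4 call was lost on the DHA diet without library 1, 2, 3, 4 or 5 of DHA-diet ozone, 3, 4, 5 or 6 of DHA-diet air or 2, 4 or 6 of control-diet ozone (adjusted p = 0.0510 to 0.121), and on the control diet without library 1 of control-diet ozone or 2 of control-diet air (adjusted p = 0.0501 to 0.0568). Of the 7 genes of this step 5 were called higher on the DHA diet (3 without library 4 or 5 of DHA-diet ozone or library 3 of DHA-diet air) and 4 on the control diet.

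**Figure D4:**
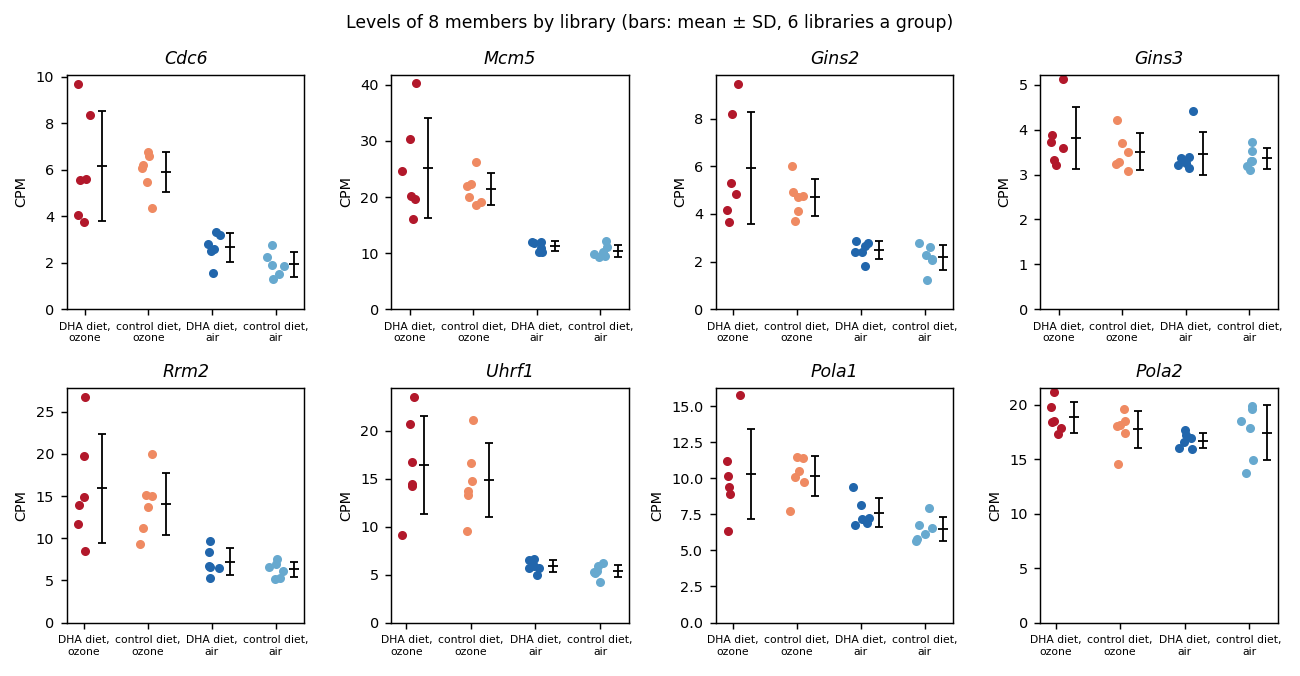
CPM of 8 genes is shown for each library, in DHA-diet ozone, control-diet ozone, DHA-diet air and control-diet air from left to right, with bars for the mean ± SD of 6 libraries. Cdc6, Mcm5, Gins2, Rrm2 and Uhrf1 separate the ozone group from the air group of the same diet, apart from 1 DHA-diet ozone library for Rrm2, while Gins3 and Pola2 overlap.

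The polymerases and primase copy the strands: polymerase alpha with primase lays down the starts (Pola1, Pola2, Prim1, Prim2), epsilon (Pole, Pole2) copies the leading strand and delta (Pold1, Pold2) the lagging strand. Of the 8 genes 5 were called higher on each diet. Pole, the catalytic subunit of epsilon, had 2.44 to 8.74 CPM (median 3.79) in DHA-diet ozone libraries, against 1.82 to 2.71 CPM (median 2.52) in DHA-diet air libraries. Its levels were 3.36 to 4.89 CPM (median 3.74) in control-diet ozone libraries, against 1.95 to 3.19 CPM (median 2.58) in control-diet air libraries. On the DHA diet 5 of 6 ozone libraries exceeded the air range, and on the control diet all 6 did. Pole rose 1.89-fold on the DHA diet (log2 0.92 ± 0.22, adjusted p = 0.00350), and on the control diet it narrowly missed the threshold at 1.55-fold (log2 0.63 ± 0.22, adjusted p = 0.0516). It passed there with DESeq2 (adjusted p = 0.0321), limma-voom (0.0232), the 2 groups alone (0.00881), the replicate block (0.0382) and the filter of 1 CPM in 6 libraries (0.0494), and without library 1, 2, 4 or 6 of DHA-diet ozone or 1 of control-diet air (adjusted p = 0.00804 to 0.0497). Pola1, the catalytic subunit of alpha, had 6.32 to 15.8 CPM (median 9.78) in DHA-diet ozone libraries, against 6.76 to 9.40 CPM (median 7.21) in DHA-diet air libraries. Control-fed libraries had 7.74 to 11.49 CPM (median 10.3) in control-diet ozone libraries, against 5.68 to 7.95 CPM (median 6.35) in control-diet air libraries. The groups overlapped, with 3 of 6 ozone libraries above the air range on the DHA diet and 5 of 6 on the control diet. Pola1 rose 1.35-fold on the DHA diet (log2 0.44 ± 0.15, adjusted p = 0.0318) and 1.56-fold on the control diet (log2 0.64 ± 0.15, adjusted p = 0.00409). The DHA-diet call ended without library 1 or 3 of DHA-diet ozone or 1, 2, 4 or 6 of DHA-diet air (adjusted p = 0.0543 to 0.130), and the control-diet call without control-diet air libraries 4 to 6 (log2 0.51, adjusted p = 0.0632).

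Pola2, the partner subunit of Pola1, had 17.3 to 21.2 CPM (median 18.4) in DHA-diet ozone libraries, against 15.9 to 17.6 CPM (median 16.7) in DHA-diet air libraries. It had 14.6 to 19.6 CPM (median 18.1) in control-diet ozone libraries, against 13.8 to 19.9 CPM (median 18.2) in control-diet air libraries. Pola2 overlapped on both diets, did not pass the test at 1.13-fold on the DHA diet (log2 0.17 ± 0.08, adjusted p = 0.128) and 1.02-fold on the control diet (log2 0.03 ± 0.08, adjusted p = 0.870), and was below 0 on the control diet with library totals as the only scaling (log2 -0.01) and without control-diet air libraries 1 to 3 (log2 -0.12). Prim1, the catalytic primase, rose 1.49-fold on the DHA diet (adjusted p = 0.00195) and 1.32-fold on the control diet (adjusted p = 0.0337), and the second call was lost without library 1, 4 or 6 of control-diet ozone or 2, 3 or 6 of control-diet air (adjusted p = 0.0507 to 0.0830). Prim2, the other primase subunit, rose 1.31-fold on the DHA diet (adjusted p = 0.0475) and 1.35-fold on the control diet (adjusted p = 0.0391). Its call was lost on the DHA diet without library 1, 4 or 5 of DHA-diet ozone, 1, 2, 3, 4 or 5 of DHA-diet air, 2, 3 or 4 of control-diet ozone or 1 or 5 of control-diet air (adjusted p = 0.0506 to 0.164), and on the control diet without library 1, 2, 4 or 6 of control-diet ozone or 1, 2, 3 or 4 of control-diet air (adjusted p = 0.0516 to 0.102). Pold2, the accessory subunit of delta, rose 1.45-fold on the DHA diet (adjusted p = 8.94e-05) and 1.249-fold on the control diet (adjusted p = 0.0123), while Pold1, its catalytic subunit, was 1.15-fold on the DHA diet (adjusted p = 0.0680) and 1.12-fold on the control diet (adjusted p = 0.194). Pold1 passed on the DHA diet without library 2 of DHA-diet ozone, 1 of DHA-diet air or 2 or 6 of control-diet air (adjusted p = 0.0279 to 0.0481) and on the control diet without library 6 of control-diet air (adjusted p = 0.0318). Pold2 overlaps Aebp1 by 70 bases in the deposited coordinates, and Aebp1 was counted at a mean of 3812 reads against 514 for Pold2. Pole2 rose 1.56-fold on the control diet (adjusted p = 0.0213) and was 1.18-fold on the DHA diet (adjusted p = 0.371) without passing the test. The Pole2 call was lost without library 1 of control-diet ozone or 2 of control-diet air (adjusted p = 0.0518 to 0.0553). The count of this role on the control diet was 2 without library 1 of control-diet ozone or library 2 of control-diet air. It was 3 without library 4 or 6 of control-diet ozone or library 3 of control-diet air, and 1 without control-diet air libraries 1 to 3. On the DHA diet it was 3 without library 1 of DHA-diet ozone or library 2 or 4 of DHA-diet air, and 3 without DHA-diet ozone libraries 1 and 2.

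The clamp, its loader and the lagging-strand enzymes keep the polymerases on the template and join the fragments. Of the 8 genes 7 were called higher on the DHA diet and 6 on the control diet. Under the alternatives these counts were 5 to 8 on the DHA diet and 5 to 6 on the control diet. Fen1, the nuclease that trims the fragments, had 14.6 to 23.2 CPM (median 19.3) in DHA-diet ozone libraries, against 9.75 to 13.02 CPM (median 11.2) in DHA-diet air libraries. Its levels were 13.9 to 20.9 CPM (median 17.52) in control-diet ozone libraries, against 8.13 to 12.1 CPM (median 10.03) in control-diet air libraries. The groups did not overlap, and Fen1 rose 1.69-fold on the DHA diet (log2 0.76 ± 0.11, adjusted p = 2.62e-05) and 1.76-fold on the control diet (log2 0.81 ± 0.11, adjusted p = 3.54e-05). Lig1, the ligase that seals them, had 22.1 to 45.6 CPM (median 30.1) in DHA-diet ozone libraries, against 17.1 to 20.6 CPM (median 19.2) in DHA-diet air libraries. Control-fed libraries had 22.6 to 35.8 CPM (median 29.9) in control-diet ozone libraries, against 15.9 to 20.7 CPM (median 17.4) in control-diet air libraries. Again no ozone library fell within the air range, and Lig1 rose 1.73-fold on the DHA diet (log2 0.79 ± 0.13, adjusted p = 0.00011) and 1.65-fold on the control diet (log2 0.73 ± 0.13, adjusted p = 0.000513).

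Rfc2, one of the subunits of the clamp loader, had 47.1 to 54.5 CPM (median 51.1) in DHA-diet ozone libraries, against 42.2 to 47.96 CPM (median 46.7) in DHA-diet air libraries. It had 47.96 to 62.4 CPM (median 52.2) in control-diet ozone libraries, against 47.04 to 53.9 CPM (median 50.6) in control-diet air libraries. The groups overlapped, and Rfc2 was not called at 1.11-fold on the DHA diet (log2 0.15 ± 0.06, adjusted p = 0.0605) and 1.05-fold on the control diet (log2 0.08 ± 0.06, adjusted p = 0.375). It passed on the DHA diet without library 1 or 6 of DHA-diet ozone or 1 of control-diet ozone (adjusted p = 0.0276 to 0.0437). Pcna, the clamp, rose 1.43-fold on the DHA diet (adjusted p = 1.32e-05) and 1.41-fold on the control diet (adjusted p = 4.28e-05). Rpa2, a subunit of the protein that coats single strands, rose 1.26-fold on the DHA diet (adjusted p = 0.00211) and 1.36-fold on the control diet (adjusted p = 0.000234). The loader subunits Rfc3 and Rfc4 rose on both diets, by 1.21 and 1.67-fold on the DHA diet and by 1.31 and 1.44-fold on the control diet. Rfc3 lost its DHA-diet call without library 3 of DHA-diet ozone (adjusted p = 0.0548). Rfc5 rose 1.32-fold on the DHA diet (adjusted p = 0.0144) but not without library 1 of DHA-diet ozone (adjusted p = 0.0539), and was 1.17-fold on the control diet (adjusted p = 0.190). By the same coordinates Rfc4 overlaps Eif4a2 by 186 bases, Fen1 overlaps Tmem258 by 193 and Lig1 overlaps Zswim9 by 1548, and the strand setting of the counting is not given. Eif4a2 was counted at a mean of 9478 reads against 106 for Rfc4.

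All 5 genes of nucleotide supply rose on both diets, and did so with every single library left out. Rrm2, the subunit of ribonucleotide reductase made mainly in S phase, had 8.55 to 26.8 CPM (median 14.5) in DHA-diet ozone libraries, against 5.31 to 9.69 CPM (median 6.70) in DHA-diet air libraries. Its levels were 9.36 to 19.98 CPM (median 14.4) in control-diet ozone libraries, against 5.21 to 7.59 CPM (median 6.36) in control-diet air libraries. The control-diet groups did not overlap, and on the DHA diet 5 of 6 ozone libraries exceeded the air range. Rrm2 rose 2.22-fold on the DHA diet (log2 1.15 ± 0.21, adjusted p = 0.000256) and 2.23-fold on the control diet (log2 1.15 ± 0.21, adjusted p = 0.00051). Tk1, the thymidine kinase of cycling cells, had 7.43 to 19.95 CPM (median 10.9) in DHA-diet ozone libraries, against 4.68 to 7.14 CPM (median 6.24) in DHA-diet air libraries. Control-fed libraries had 7.88 to 11.9 CPM (median 10.9) in control-diet ozone libraries, against 5.45 to 6.39 CPM (median 6.05) in control-diet air libraries. Its groups did not overlap, and Tk1 rose 1.94-fold on the DHA diet (log2 0.96 ± 0.17, adjusted p = 0.0003) and 1.75-fold on the control diet (log2 0.81 ± 0.18, adjusted p = 0.00256).

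Dut, the enzyme that keeps uracil out of DNA, had 21.98 to 29.9 CPM (median 24.5) in DHA-diet ozone libraries, against 17.4 to 20.5 CPM (median 18.7) in DHA-diet air libraries. It had 20.6 to 27.1 CPM (median 23.8) in control-diet ozone libraries, against 15.9 to 19.5 CPM (median 17.3) in control-diet air libraries. All ozone libraries were higher than all air libraries of their diet, and Dut rose 1.32-fold on the DHA diet (log2 0.40 ± 0.08, adjusted p = 0.000414) and 1.36-fold on the control diet (log2 0.45 ± 0.08, adjusted p = 0.000269), the smallest change of the 5. Rrm1, the large subunit of ribonucleotide reductase, rose 1.64-fold on the DHA diet (adjusted p = 6.36e-05) and 1.48-fold on the control diet (adjusted p = 0.00114). Tyms, thymidylate synthase, rose 1.58-fold on the DHA diet (adjusted p = 0.00463) and 1.73-fold on the control diet (adjusted p = 0.00201), and was not called on the control diet without control-diet air libraries 1 to 3 (log2 0.65, adjusted p = 0.0523). A pseudogene copy, Tyms-ps, held a mean of 1.67 counts, so few Tyms reads were placed there. Tk1 overlaps Afmid by 97 bases.

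The G1/S cyclins and E2F factors sit at the switch itself, at low transcript levels. Of the 4 genes 3 were called higher on each diet. E2f8, a repressor that E2F itself induces late in S phase, had 1.26 to 6.20 CPM (median 2.97) in DHA-diet ozone libraries, against 1.11 to 2.66 CPM (median 1.60) in DHA-diet air libraries. Its levels were 2.27 to 4.59 CPM (median 2.68) in control-diet ozone libraries, against 0.893 to 1.498 CPM (median 1.16) in control-diet air libraries. The groups overlapped on the DHA diet, where 4 of 6 ozone libraries lay above the air range, and not on the control diet. E2f8 rose 1.89-fold on the DHA diet (log2 0.92 ± 0.28, adjusted p = 0.0162) and 2.44-fold on the control diet (log2 1.29 ± 0.29, adjusted p = 0.00341). The DHA-diet call ended without library 1 of DHA-diet ozone (adjusted p = 0.0772). Ccne1, cyclin E1, had 2.22 to 5.25 CPM (median 3.42) in DHA-diet ozone libraries, against 1.29 to 3.18 CPM (median 1.80) in DHA-diet air libraries. Control-fed libraries had 2.36 to 4.75 CPM (median 2.88) in control-diet ozone libraries, against 1.70 to 2.45 CPM (median 1.86) in control-diet air libraries. Of 6 ozone libraries 4 exceeded the air range on the DHA diet and 5 on the control diet. Ccne1 rose 1.94-fold on the DHA diet (log2 0.95 ± 0.22, adjusted p = 0.00230) and 1.64-fold on the control diet (log2 0.72 ± 0.22, adjusted p = 0.0265), and the control-diet call was lost without library 2 or 6 of control-diet ozone or 1 or 4 of control-diet air (adjusted p = 0.0549 to 0.0870).

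Ccne2, cyclin E2, had 2.01 to 2.97 CPM (median 2.47) in DHA-diet ozone libraries, against 1.57 to 2.90 CPM (median 2.24) in DHA-diet air libraries. It had 2.47 to 3.25 CPM (median 2.72) in control-diet ozone libraries, against 1.93 to 2.48 CPM (median 2.26) in control-diet air libraries. The groups overlapped, and Ccne2 was not called at 1.07-fold on the DHA diet (log2 0.10 ± 0.14, adjusted p = 0.653) and 1.23-fold on the control diet (log2 0.30 ± 0.14, adjusted p = 0.145). It shares 5623 bases with Ints8, which was counted at a mean of 629.6 reads against 54.7 for Ccne2. E2f1, the activating factor, rose 1.33-fold on the DHA diet (adjusted p = 0.00206) and 1.35-fold on the control diet (adjusted p = 0.00219), and was not called on the control diet without control-diet air libraries 1 to 3 (log2 0.32, adjusted p = 0.0706). Without those libraries 1 of these 4 genes was called on the control diet.

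All 3 genes of chromatin behind the fork rose on both diets. Uhrf1, which reads half-methylated DNA and brings the maintenance methyltransferase to it, had 9.16 to 23.5 CPM (median 15.6) in DHA-diet ozone libraries, against 4.91 to 6.64 CPM (median 5.78) in DHA-diet air libraries. Its levels were 9.59 to 21.2 CPM (median 14.3) in control-diet ozone libraries, against 4.28 to 6.19 CPM (median 5.37) in control-diet air libraries. The lowest ozone library lay above the highest air library on both diets, and Uhrf1 rose 2.80-fold on the DHA diet (log2 1.48 ± 0.18, adjusted p = 3.56e-06) and 2.76-fold on the control diet (log2 1.46 ± 0.18, adjusted p = 1.38e-05). Chaf1b, a subunit of the assembly factor that places new histones, had 4.80 to 9.90 CPM (median 7.13) in DHA-diet ozone libraries, against 2.49 to 3.90 CPM (median 3.26) in DHA-diet air libraries. Control-fed libraries had 5.40 to 6.87 CPM (median 6.70) in control-diet ozone libraries, against 2.89 to 4.23 CPM (median 3.64) in control-diet air libraries. There was no overlap, and Chaf1b rose 2.18-fold on the DHA diet (log2 1.13 ± 0.16, adjusted p = 1.78e-05) and 1.75-fold on the control diet (log2 0.81 ± 0.16, adjusted p = 0.000875).

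Chaf1a, the large subunit of that factor, had 9.64 to 17.3 CPM (median 11.8) in DHA-diet ozone libraries, against 7.69 to 8.10 CPM (median 7.95) in DHA-diet air libraries. It had 11.51 to 13.8 CPM (median 12.99) in control-diet ozone libraries, against 7.64 to 10.8 CPM (median 9.11) in control-diet air libraries. The groups did not overlap, and Chaf1a rose 1.57-fold on the DHA diet (log2 0.65 ± 0.11, adjusted p = 0.000177) and 1.40-fold on the control diet (log2 0.48 ± 0.11, adjusted p = 0.00424). Without control-diet air libraries 4 to 6 the control-diet call was lost (log2 0.34, adjusted p = 0.0823). Chaf1a overlaps Ubxn6 by 983 bases, and Ubxn6 was counted at a mean of 1930 reads against 238 for Chaf1a.

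Across roles, 34 genes were called by edgeR on both diets, Pole2 on the control diet and not on the DHA diet, and Mcm10, Gins4, Pole and Rfc5 on the DHA diet and not on the control diet. With DESeq2 or limma-voom Pole was called on both. On the DHA diet limma-voom did not call Pola1, Rfc5 and E2f8, and it added Pold1 and Rfc2. A fit of the 2 groups alone lost Gins4, Dbf4, Pola1, Prim2, Rfc3, Rfc5 and E2f8 on that diet. In the main fit, called on neither diet were Orc1, Orc6, Gins3, Cdc7, Pola2, Pold1, Rfc2 and Ccne2. Fitted changes of at least 2-fold on both diets were those of Cdc6, Mcm5, Gins2, Rrm2 and Uhrf1. Leaving out single libraries brought Mcm5 under 2-fold on both diets (lowest log2 0.982 on the DHA diet and 0.972 on the control diet). It also did so for Rrm2 on the DHA diet (0.932) and Gins2 on the control diet (0.980). With all libraries, called changes of at least 2-fold numbered 7 of 47 on the DHA diet and 6 of 47 on the control diet, where 1.44% and 0.861% of all genes had one. Subunits of one complex differed in size: of the GINS, 2.38-fold for Gins2 stood beside 1.101-fold for Gins3 on the DHA diet, and of polymerase alpha 1.35-fold for Pola1 beside 1.13-fold for Pola2. These differences between genes were not tested.

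Genes of the same pathway outside the 47 showed smaller changes, apart from a few. For this list and those that follow, the shares over all genes were 12.7% higher and 11% lower on the DHA diet, and 8.93% and 7.87% on the control diet. Among 30 other origin and fork factors, 13 were called higher on the DHA diet and 10 on the control diet, with 0 lower and medians of log2 0.14 and 0.15. The DHA-diet count was 8 without library 1 or 3 of DHA-diet ozone, and 8 without DHA-diet ozone libraries 1 and 2, and the control-diet count was 6 without control-diet air libraries 4 to 6, where Dna2, a nuclease and helicase of the lagging strand named after its value was seen, was called lower (log2 -0.34, adjusted p = 0.0400). Clspn, the checkpoint adaptor claspin, rose 2.70-fold on the DHA diet (adjusted p = 0.00022) and 2.148-fold on the control diet (adjusted p = 0.00470). Tipin, a fork protection factor, rose 1.26-fold on the DHA diet (adjusted p = 0.00176) and 1.36-fold on the control diet (adjusted p = 0.000244). Rpa1, the large subunit of the single-strand binding protein, rose 1.19-fold on the DHA diet (adjusted p = 0.000152) and 1.22-fold on the control diet (adjusted p = 9.10e-05).

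Of 17 other nucleotide supply genes, 13 were called higher and 1 lower on the DHA diet (median log2 0.32), and 10 higher and 0 lower on the control diet (median 0.25). Without control-diet air libraries 1 to 3 the control-diet count was 4. Samhd1, which breaks down dNTPs and is named after its value was seen, lay just short of a lower call on the control diet (0.917-fold, adjusted p = 0.0503). It was called lower there without library 1, 2 or 6 of DHA-diet ozone, 1, 2, 4 or 5 of DHA-diet air, 5 of control-diet ozone or 2 or 5 of control-diet air (adjusted p = 0.0193 to 0.0476), and by DESeq2 (0.0254) and limma-voom (0.0296). Mthfd2, a mitochondrial folate enzyme, rose 1.88-fold on the DHA diet (adjusted p = 5.71e-05) and 1.43-fold on the control diet (adjusted p = 0.0155). Dctpp1, which hydrolyses dCTP and its modified forms, rose 1.39-fold on the DHA diet (adjusted p = 0.00426) and 1.56-fold on the control diet (adjusted p = 0.000657), and Ctps, which makes CTP, rose 1.47-fold on the DHA diet (adjusted p = 0.000193) and 1.38-fold on the control diet (adjusted p = 0.00209). The gene called lower on the DHA diet, named after its value was seen, was Rrm2b, the reductase subunit used outside S phase (0.881-fold, adjusted p = 0.0379). That call was lost without library 2, 3, 4, 5 or 6 of DHA-diet ozone or 2, 4 or 5 of DHA-diet air (adjusted p = 0.0513 to 0.114). On leaving out control-diet air libraries 1 to 3, Mthfd2 and Ctps were not called on the control diet (adjusted p = 0.138 and 0.0643).

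The other regulators of the G1/S switch had the smallest medians of these lists. Of 26, 5 were called higher and 2 lower on the DHA diet (median log2 0.10). The shares over all genes there were 12.7% higher and 11% lower. On the control diet 2 were called higher and 0 lower (median 0.05), against 8.93% and 7.87% of all genes. The count of higher calls on the DHA diet was 3 without library 1 of DHA-diet ozone. The control-diet count was 6 without library 1 of DHA-diet ozone, and 4 without library 6 of DHA-diet ozone or library 3 of control-diet ozone. It was 7 without DHA-diet ozone libraries 1 and 2, 5 without control-diet air libraries 4 to 6 and 1 without control-diet air libraries 1 to 3. Cks1b, a small subunit of cyclin-dependent kinases, rose 1.53-fold on the DHA diet (adjusted p = 0.00148) and 1.55-fold on the control diet (adjusted p = 0.00217), and its control-diet call was lost without control-diet air libraries 1 to 3 (adjusted p = 0.0626). Ccnd1, cyclin D1, rose 1.18-fold on the control diet (adjusted p = 0.0148) and was 1.13-fold on the DHA diet (adjusted p = 0.0589). Without control-diet air libraries 4 to 6 the Ccnd1 call on the control diet was lost (adjusted p = 0.245), and on the DHA diet Ccnd1 was called without library 6 of DHA-diet ozone, 4 of DHA-diet air, 1 of control-diet ozone or 2, 4 or 6 of control-diet air (adjusted p = 0.0160 to 0.0490). Cdk6, a partner of the D cyclins, fell on the DHA diet to 0.817 of its air level (adjusted p = 0.0051) and was 0.957-fold on the control diet (adjusted p = 0.601). On that diet Cdk7, the kinase that activates other cyclin-dependent kinases, named after its value was seen, was at 0.918-fold (adjusted p = 0.0556) and was called lower without library 1 or 2 of DHA-diet ozone, 1, 2 or 6 of DHA-diet air, 2 or 5 of control-diet ozone or 2 of control-diet air (adjusted p = 0.0404 to 0.0487), and by DESeq2 (0.0418) and limma-voom (0.0472). The other genes called on the DHA diet, named after their values were seen, were Rbl1, Myc, Foxm1 and Mybl2, which rose 1.32, 1.43, 1.85 and 1.54-fold, and Ccnd2, cyclin D2, which fell to 0.865 of its air level. Without library 1 of DHA-diet ozone the calls for Foxm1 and Mybl2, both activators of late cell-cycle genes, were lost (adjusted p = 0.0914 and 0.0723).

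Among 7 inhibitors of cyclin-dependent kinases, 4 were called higher and 1 lower on the DHA diet (median log2 0.31), and 2 higher and 0 lower on the control diet (median 0.12). The shares over all genes were 12.7% higher and 11% lower on the DHA diet, and 8.93% and 7.87% on the control diet. Cdkn1a, which encodes p21, rose 1.46-fold on the DHA diet (adjusted p = 0.00442) and was 1.01-fold on the control diet (adjusted p = 0.951), and the interaction of diet and exposure did not pass the test for it (log2 0.53, adjusted p = 0.664). Cdkn2b, or p15, rose 1.34-fold on the DHA diet (adjusted p = 0.00173) and was 1.09-fold on the control diet (adjusted p = 0.394). Cdkn2c, or p18, rose 1.24-fold on the DHA diet (adjusted p = 0.0115) and 1.22-fold on the control diet (adjusted p = 0.0243), and its control-diet call ended without library 5 of control-diet air (adjusted p = 0.0560). Cdkn2d, or p19, rose 1.17-fold on the control diet (adjusted p = 0.0450) and was 1.14-fold on the DHA diet (adjusted p = 0.0595). That call ended without library 2, 3, 5 or 6 of DHA-diet ozone, 1, 2, 3, 4, 5 or 6 of DHA-diet air, 1, 2, 3 or 6 of control-diet ozone or 1, 2, 3, 4 or 5 of control-diet air (adjusted p = 0.0501 to 0.129), so the control-diet count was 1 in those refits, and 0 without library 5 of control-diet air, where Cdkn2c also failed. On the DHA diet Cdkn2d was called without library 6 of DHA-diet ozone, 2 of DHA-diet air, 1 of control-diet ozone or 2 or 6 of control-diet air (adjusted p = 0.0364 to 0.0490). Named after their values were seen, Cdkn1c (p57) rose 1.23-fold (adjusted p = 0.0048) and Cdkn1b (p27) fell to 0.886 of its air level (adjusted p = 0.00916) on the DHA diet. Without control-diet air libraries 1 to 3 the control-diet count was 0.

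Of 10 other chromatin genes of S phase, 7 were called higher and 0 lower on each diet, with medians of log2 0.26 on the DHA diet and 0.21 on the control diet. The control-diet count was 4 without control-diet air libraries 1 to 3. Hells, a chromatin remodeller that works with DNA methylation, rose 2.66-fold on the DHA diet (adjusted p = 9.83e-05) and 2.67-fold on the control diet (adjusted p = 0.000213). Asf1b, a histone chaperone, rose 2.37-fold on the DHA diet (adjusted p = 0.000499) and 2.28-fold on the control diet (adjusted p = 0.00165). In the mitosis list Cdk1, the mitotic kinase, rose 3.18-fold on the DHA diet (adjusted p = 1.19e-05) and 2.91-fold on the control diet (adjusted p = 7.65e-05), Aurka, a spindle kinase, rose 2.56-fold on the DHA diet (adjusted p = 2.33e-05) and 2.13-fold on the control diet (adjusted p = 0.000492), and Smc2, a condensin subunit, rose 1.48-fold on the DHA diet (adjusted p = 0.000119) and 1.63-fold on the control diet (adjusted p = 3.37e-05). Mki67, a marker of cycling cells, was at 12.6 to 63.6 CPM (median 24.9) in DHA-diet ozone against 9.12 to 16.2 (median 14.03) in DHA-diet air, with an overlap. It was at 19.1 to 29.9 CPM (median 25.3) in control-diet ozone against 9.14 to 14.4 (median 11.7) in control-diet air, with none.

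The DHA diet itself did not change these genes past the test, in air or after ozone. In filtered air, DHA-fed against control-fed libraries gave 0 of 47 members called by edgeR, where 1.15% of all genes were called (117 higher and 69 lower, or 72 and 113 with library totals as the only scaling), and 2 members had an unadjusted p under 0.05 (Gmnn and Rfc2, against 17.3% of all genes). DESeq2 called 0 and limma-voom 1, Gmnn, which was lower (log2 -0.29, adjusted p = 0.0474). After ozone, DHA-fed against control-fed libraries gave 0 of 47 called by edgeR, DESeq2 and limma-voom, with 4 members at an unadjusted p under 0.05 (Rfc4, Pold1, Gins4 and Mcm7), and edgeR called 0% of all genes (2260, or 14%, at an unadjusted p under 0.05, 80 called by DESeq2 and 19 by limma-voom). The test of the interaction, which asks whether the ozone response differed between diets, called 0 members by each of the 3 tools, with 0 at an unadjusted p under 0.05. edgeR called 0 genes of the 16153 there, with 988 (6.12%) at an unadjusted p under 0.05, 5 called by DESeq2 and 2 by limma-voom.

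The intervals show how large a diet effect could have been missed. In air the members' log2 differences (DHA minus control) had a median of 0.08 and ran from -0.25 for Gmnn to 0.52 for E2f8, and 46 of 47 95% intervals lay within ±1 log2 (a 2-fold change either way). After ozone the median was 0.12, the range -0.16 for Ccne2 to 0.46 for Rfc4, and all 47 intervals lay within ±1. For the interaction the median was 0.02, the range -0.40 for Pole2 to 0.53 for Mcm10, and 44 of 47 intervals lay within ±1. Smaller effects were bounded for fewer genes: 34 intervals lay within ±0.5 in air, 37 after ozone and 24 for the interaction. In both diet comparisons 35 of 47 fitted values were above 0, where the share over all genes was 51.6% in air and 51.8% after ozone. After ozone that count rested on library 1 of DHA-diet ozone: without it 22 of 47 values were above 0 and the median was -0.02, and without DHA-diet ozone libraries 1 and 2 the count was 23 and the median -0.02. The median of the interaction was -0.04 in both of these refits. In air the count was 31 to 35 and the median 0.05 to 0.09 under every alternative. These comparisons share libraries with the ozone comparisons and are not independent of them.

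Gmnn and Rfc4 had the smallest p in the diet comparisons. Gmnn was lower in DHA-diet air than in control-diet air (log2 -0.25, adjusted p = 0.153), and was called without library 6 of control-diet air (log2 -0.31, adjusted p = 0.0409). Pold1 was called higher in DHA-diet air without control-diet air libraries 4 to 6 (log2 0.35, adjusted p = 0.00781). Rfc4 was higher in DHA-diet ozone than in control-diet ozone (log2 0.46, adjusted p = 0.175). Library 1 of DHA-diet ozone had 10.3 CPM of Rfc4, against 5.36 to 6.43 CPM in the rest of its group and 4.23 to 5.79 CPM in control-diet ozone.

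**Figure D5:**
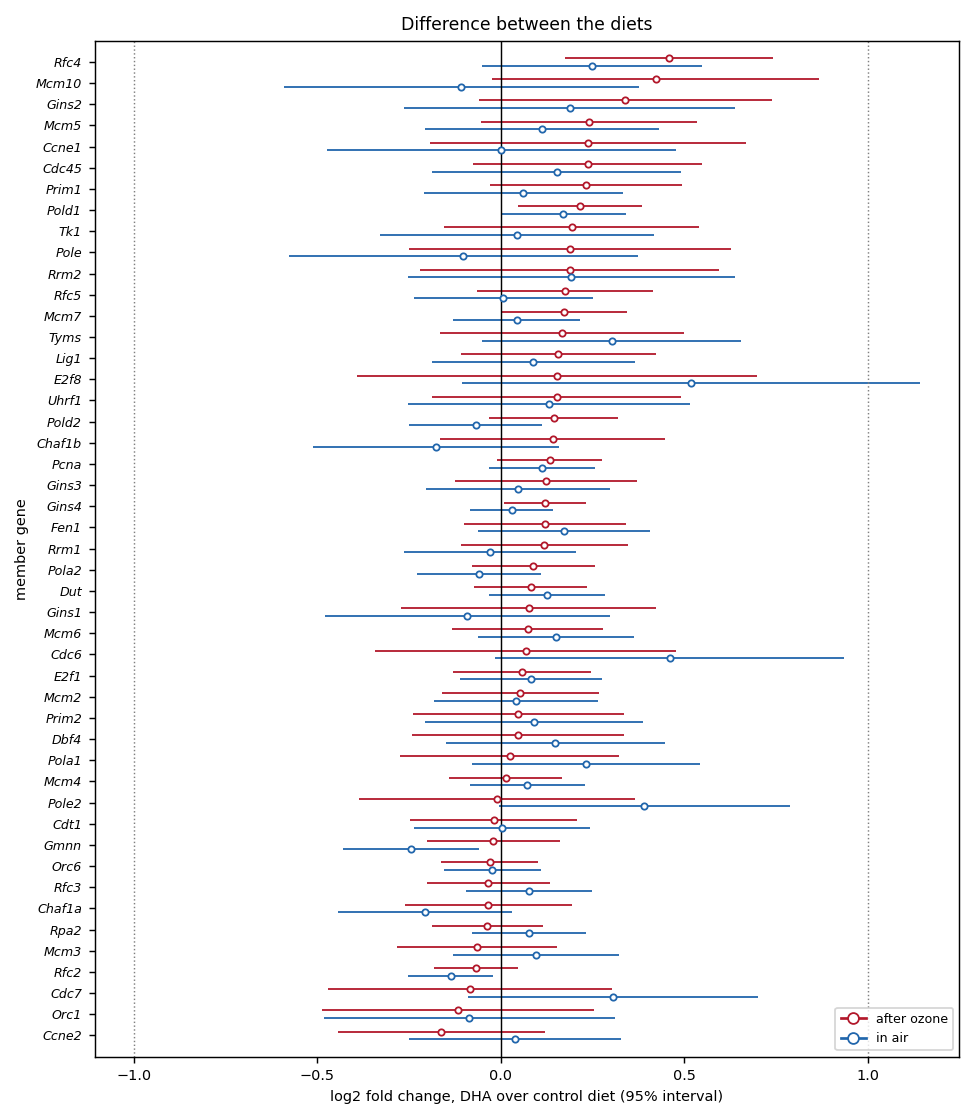
Fitted log2 fold changes of the DHA over the control diet with 95% intervals are given for the 47 genes, after ozone (red) and in air (blue), ordered by the value after ozone, with dotted lines at ±1. Open points mean that 0 of 47 passed an adjusted p under 0.05 in either comparison, and most intervals hold 0.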

How the data were processed

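Lung RNA was extracted with a column kit and sequenced, per the labels' protocols. Partek, STAR, HTSeq and the build mm39 are named in the submitters' processing notes, while their versions, the annotation and the strand setting remain unstated. The deposited values are raw read counts per gene, whole numbers except that 1 gene is rounded to 3 significant digits. Library totals were 18053493 to 26225630 counts.

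Groups came from the labels. The members, their roles and the other gene lists were chosen with earlier results of these data known. Counts were filtered with filterByExpr (minimum count 10, minimum total 15; 16153 genes kept), scaled by TMM and tested by the quasi-likelihood method of edgeR 4.0.16 under R 4.3.3, in one model of all 24 libraries with a mean for each group (20 residual degrees of freedom) and Benjamini-Hochberg adjustment over all genes. Errors after ± on log2 fold changes are standard errors, and folds are 2 to the fitted log2 change. CPM use TMM-scaled library sizes. A difference between libraries with large counts is limited by their spread, and the lowest member count in any library was 15.

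Library ranges are given for the 2 members of each role with the largest and the 1 with the smallest mean ozone log2 fold change, which makes 24. Of the other lists, the genes with the smallest p in each ozone comparison are named, up to 4 a list, apart from a gene that is not reported here. Promoters (RefSeq, GRCm38.p6) were searched for exact matches. That build differs from mm39, and overlaps between genes were found from the coordinates in the deposited count table alone. Alternatives were RLE scaling, library totals, DESeq2 1.42.0, voom with quality weights (limma 3.58.1), the replicate number as a block, other filters (none, or 1 CPM in 6 libraries), the 2 groups alone and each library left out. Refits without the first 3 or the last 3 control-diet air libraries, or without DHA-diet ozone libraries 1 and 2, were added after seeing the data. The fits were tested on simulated data. Figures used Python 3.11.15 and matplotlib 3.10.9. The T cell marker Trac was not analysed here.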

Additional observations from a re-analysis of the deposited data

Results flagged for a closer look

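In 4 of the 100 groups of 6 libraries examined (the 24 members with library values and the summed level, in 4 groups each), 1 library lay apart from the other 5 by more than Dixon's 95% critical value, a share of the group's range. Chance gives about 1 in 20, or 5 of 100. Gins3 was at 5.12 CPM in DHA-diet ozone library 1, against 3.21 to 3.89 CPM in the rest of its group, and at 4.41 CPM in DHA-diet air library 1, against 3.15 to 3.40 CPM in the rest. Ccne1 was at 2.45 CPM in control-diet air library 2, against 1.70 to 1.93 CPM in the rest. The summed level of the 47 genes was 566 CPM in control-diet air library 3, against 589.8 to 603 CPM in the rest of its group.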

How the results depend on the processing

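The counts of members called after ozone stayed within 1.5 times the reported ones under every alternative: 31 to 40 on the DHA diet (34 to 40 leaving out single libraries) and 26 to 36 on the control diet (31 to 36). No called member changed sign in these refits, and 45 to 47 of the 47 log2 fold changes stayed above 0. Single values were followed for the 24 members with library ranges, which were chosen in part for the largest changes after ozone. Of their 1680 values under the alternatives, 1638 kept direction and call, 17 became called, 21 lost the call and 4 reversed. Among those 24 the reversals were all of Pola2 on the control diet, which was not called. Its log2 change was -0.0135 with library totals and -0.117 without control-diet air libraries 1 to 3. Leaving out single libraries it was -0.0386 to 0.0696, below 0 without control-diet air library 2 or 3. Members outside those 24 also fell below 0 in some refits. On the control diet 6 to 8 of 8 polymerase and primase genes stayed above 0, and on the DHA diet 6 to 7 of 7 helicase activation genes.

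For ozone on the control diet, all genes called numbered 1803 without control-diet air libraries 1 to 3, against 2713. For diet in air, 1 member was called by limma-voom, 1 without control-diet air libraries 4 to 6, and 0 to 1 leaving out single libraries. All genes called there numbered 186, against 85 with the replicate block, 583 by DESeq2, 849 by limma-voom, 359 with the 2 groups alone, 49 to 716 leaving out single libraries, 0 without control-diet air libraries 1 to 3, 1551 without libraries 4 to 6 and 747 without DHA-diet ozone libraries 1 and 2. The lowest came without control-diet air library 1 and the highest without its library 6. For diet after ozone, 0 genes were called, against 80 by DESeq2, 19 by limma-voom, 2 with the 2 groups alone, 27 without control-diet air libraries 4 to 6 and 0 to 144 leaving out single libraries (144 without DHA-diet ozone library 2). For the interaction, 0 were called, against 5 by DESeq2, 2 by limma-voom, 4 without control-diet air libraries 4 to 6 and 0 to 3 leaving out single libraries (3 without control-diet air library 6). The causes were not tested.

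The labels do not say if a replicate number marks a pair, and same-numbered libraries were no more alike than others by correlation. The mean of each group was first subtracted from every gene's log2 CPM. What remained correlated at -0.0169 on average (-0.210 to 0.0966) between same-numbered libraries of different groups, and at 0.00341 on average between libraries of other numbers. By that measure 0 of 24 libraries were closest to their own number. A correlation over all genes cannot exclude a pairing that acts on few of them. With the replicate block, 38 members were called on the DHA diet and 36 on the control diet. At 6 libraries a group, diet differences under log2 0.5 were not bounded for every member.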
